A study of Oryza sativa Indica Group with 5 samples.

Results

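Transcripts of the starch phosphorylases and disproportionating enzymes were followed in developing rice seed as 4 genes, matched by locus name to the array: PHOL (LOC_Os03g55090), PHOH (LOC_Os01g63270), DPE1 (LOC_Os07g43390) and DPE2 (LOC_Os07g46790). All 4 of these loci were found among 48857 loci on the array, with 5 of its 59676 probes, and all 5 probes were well above background on all 5 arrays. As labelled, the high-amylose group held 3 Oryza sativa Indica Group accessions of haplotype 8, and the waxy group, whose starch holds little or no amylose, held 2 accessions of haplotype 4. Every accession was measured once, on 1 single-colour Agilent array, from 200 mg of pulverised developing seed taken 16 days post-anthesis from untreated glasshouse plants kept at 29 °C in daytime and at 21 °C overnight. The comparison asked which transcripts differ between high-amylose and waxy grain. Since each array is another accession, and nothing says that seeds of several plants were kept apart, p-values measure only the spread between these accessions and arrays.

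Phosphorylases and disproportionating enzymes both move glucose units to or from glucans without spending a sugar nucleotide. A phosphorylase passes glucose from glucose 1-phosphate to the end of a glucan chain, or runs the other way and releases glucose 1-phosphate with phosphate. A disproportionating enzyme cuts a short malto-oligosaccharide and joins the piece to another glucan. The family comes as a plastidial pair and a cytosolic pair. In cereal endosperm, the starch-filled storage tissue of the grain, the plastidial pair (PHOL and DPE1) is linked to starch synthesis, and the 2 proteins are known to associate in rice. The cytosolic pair (DPE2 and PHOH) is best known from Arabidopsis leaves, where it handles the maltose exported from starch breakdown and a soluble heteroglycan.

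Some arrays stood apart before any of the 4 genes was considered. High-amylose replicates 2 and 3 shared a scan date and were dimmer, with a 75th percentile of processed intensity of 108 and 88.8, against 183 on high-amylose replicate 1 and 203 and 212 on the waxy arrays. The 2 waxy arrays had a separate scan date to themselves, so every scan date held 1 group only. The transcript of GBSSI (Waxy), the granule-bound synthase that makes amylose, had a log2 signal of 7.96 to 8.46 on the high-amylose arrays, against 8.21 for the accession labelled waxy replicate 1 and 3.70, the only low value, for waxy replicate 2. The GBSSI transcript level of the accession labelled waxy replicate 1 thus lay within the high-amylose range and does not bear out its label. It cannot show the label to be wrong either, since 1 transcript probe measures neither the enzyme nor amylose. The label was kept. Of the 4 endosperm markers 3 have a probe, and all 3 were well above background on all 5 arrays. The log2 of their summed signal lay between 9.30 and 9.93 in high-amylose seed and at 9.50 and 9.67 in waxy seed. GluA-2 alone stood at 9.26 to 9.86 in high-amylose seed and at 9.44 and 9.595 in waxy seed, so this sum mostly reads GluA-2. Markers of the green outer layers (5 loci, light-harvesting and Rubisco small subunit genes) summed to -0.28, 1.80 and 3.55 on high-amylose replicates 1, 2 and 3, and to -0.72 and 0.14 on the waxy arrays. Of these 5 markers, 3 were well above background on only 2 arrays. For the 3 embryo and aleurone markers the log2 of the summed signal lay between 9.03 and 10.2 in high-amylose seed, and at 8.94 and 9.33 in waxy seed. In a whole-seed extract, fewer cells of a type and less RNA per cell cannot be told apart.

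PHOL, the plastidial phosphorylase encoded on chromosome 3, was the only one of the 4 with a positive group difference. Values are log2 processed intensity minus the array's own 75th percentile, so 0 marks that percentile and 1 unit is 2-fold. PHOL stood at 4.17, 2.94 and 3.89 on high-amylose replicates 1, 2 and 3, against 3.21 and 3.32 on waxy replicates 1 and 2. High-amylose replicates 1 and 3 lay above both waxy arrays and high-amylose replicate 2 lay below both, so the groups overlapped. The means were 3.67 ± 0.64 in high-amylose seed (SD, n = 3) and 3.27 ± 0.08 in waxy seed (SD, n = 2). The fitted difference was 0.40 (SE 0.48), or 1.32-fold, with a 95% interval of -0.68 to 1.48, and it missed the threshold (limma, Benjamini-Hochberg adjusted p = 1.00). The PHOL signal was far from its detection limit, at 55.0 to 213 times the lowest signal well above background on its array in high-amylose seed and 114 and 134 times in waxy seed.

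DPE1, the plastidial disproportionating enzyme encoded on chromosome 7, had the largest group difference of the 4 and the largest spread. It stood at 1.64, 0.10 and -0.73 on high-amylose replicates 1, 2 and 3, against 1.42 and 1.17 on the waxy arrays. High-amylose replicate 1 was the highest of the 5 arrays, and high-amylose replicates 2 and 3 were the lowest. The means were 0.34 ± 1.20 in high-amylose seed (SD, n = 3) and 1.30 ± 0.17 in waxy seed (SD, n = 2). The fitted difference of -0.96 (SE 0.64), 1.94-fold lower in high-amylose seed, had a 95% interval of -2.41 to 0.49 and missed the threshold (limma, Benjamini-Hochberg adjusted p = 1.00). Without high-amylose replicate 1 the difference was -1.61 (limma adjusted p = 0.216), and without high-amylose replicate 3 it was -0.43 (limma adjusted p = 1.00).

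Within the high-amylose group, DPE1 spanned 2.37 on the log2 scale, or 5.17-fold, whereas the 2 waxy accessions lay 0.25 apart, or 1.19-fold. A high-amylose range at least as wide was found at 6.53% of the 28963 tested loci, and a waxy gap at least as wide at 61.3% of them. The median over all tested loci was 0.97 for the high-amylose range and 0.34 for the waxy gap, so a wider spread in the high-amylose group was general. The range takes in 3 arrays and the gap 2. High-amylose replicates 2 and 3 had a scan date apart from replicate 1, while the 2 waxy arrays shared theirs. Accession and scan date thus cannot be told apart in this spread. The spot error given by the scanner software was 10.0% to 11.2% of the DPE1 signal on every array. This error covers a single spot and not the difference between arrays.

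DPE2, the cytosolic disproportionating enzyme, also encoded on chromosome 7, followed the same order of high-amylose arrays as DPE1. Its values were 0.22, -0.97 and -1.49 on high-amylose replicates 1, 2 and 3, against -0.17 and 0.07 on the waxy arrays. The waxy arrays lay between high-amylose replicate 1 above them and high-amylose replicates 2 and 3 below. The means were -0.75 ± 0.88 in high-amylose seed (SD, n = 3) and -0.05 ± 0.17 in waxy seed (SD, n = 2). The fitted difference of -0.70 (SE 0.54), 1.62-fold lower in high-amylose seed, had a 95% interval of -1.92 to 0.53 and missed the threshold (limma, Benjamini-Hochberg adjusted p = 1.00). DPE2 lay nearest to its detection limit. It reached 13.9, 3.64 and 2.41 times the lowest signal well above background on high-amylose replicates 1, 2 and 3, against 10.9 and 14.1 times on the waxy arrays. Its spot error was widest on high-amylose replicate 3, at 13.0% of the signal. Without high-amylose replicate 1 the difference was -1.18 (limma adjusted p = 0.279), and without high-amylose replicate 3 it was -0.32 (limma adjusted p = 1.00).

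PHOH, the cytosolic phosphorylase encoded on chromosome 1, is read by 2 probes, each in 1 spot, whose names point to different transcript models of the locus. The probe for transcript 2, which had the higher mean and represented the locus, gave 1.95, 1.03 and 0.69 on high-amylose replicates 1, 2 and 3, against 1.55 and 2.26 on the waxy arrays. High-amylose replicates 2 and 3 were the lowest arrays here too, and waxy replicate 2 was the highest. The probe for transcript 1 gave 1.56, 0.30 and -0.17 on the high-amylose arrays, against 0.89 and 1.38 on the waxy arrays, where high-amylose replicate 1 was the highest. Once each probe was centred, the 2 probes differed from one another by at most 0.31, on high-amylose replicate 1. The fitted difference of the locus was -0.68 (SE 0.50), 1.60-fold lower in high-amylose seed, with a 95% interval of -1.81 to 0.45 (limma, Benjamini-Hochberg adjusted p = 1.00). Fitted apart among 35660 probes, the probe for transcript 1 was at -0.58 (SE 0.56) and did not pass either (limma adjusted p = 1.00). Without high-amylose replicate 1 the PHOH difference was -1.04 (limma adjusted p = 0.359), without waxy replicate 1 it was -1.03 and without waxy replicate 2 it was -0.33 (limma adjusted p = 1.00 for both).

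**Figure D1:**
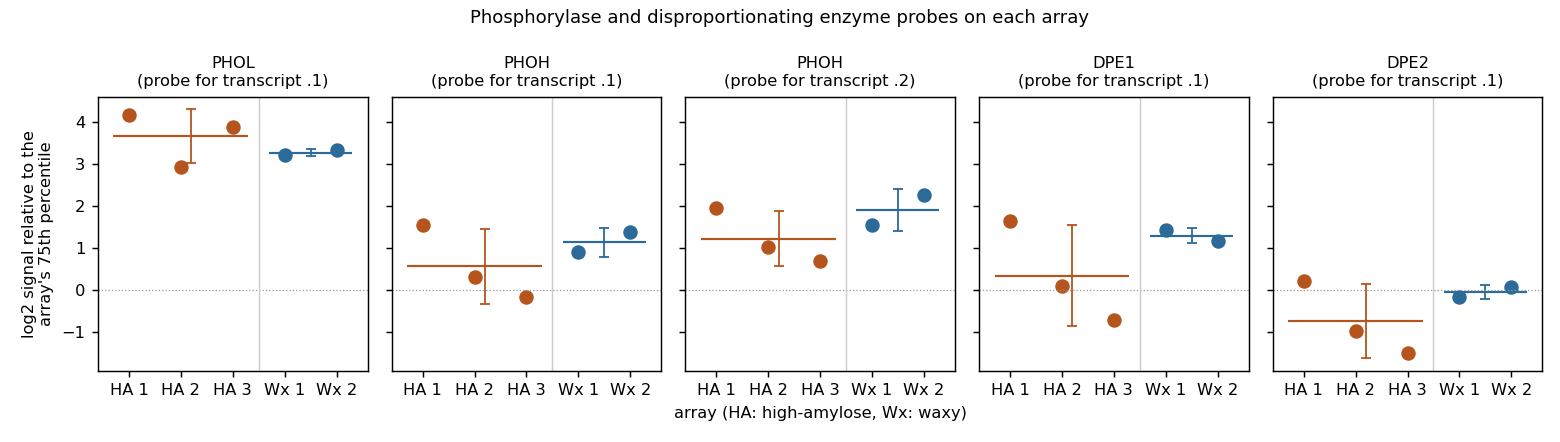
Log2 signal of each of the 5 probes relative to the 75th percentile of its array (vertical axis) on the 3 high-amylose arrays (HA, orange) and the 2 waxy arrays (Wx, blue), with the group mean as a line and 1 SD as a bar. Levels of different probes are not comparable. DPE1 spans 2.37 within the high-amylose group and 0.25 between the waxy arrays.

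Across the transcriptome, the limma fit over all 5 arrays called 8 of 28963 tested loci (0.0276%) at an adjusted p under 0.05. It called 0 of the 4 genes, and 0 of them had an unadjusted p under 0.05, against 3.39% of all tested loci. For all 4 genes the high-amylose and waxy arrays overlapped, while the groups did not overlap at 13.6% of tested loci. An exact two-sided permutation test over the 10 ways to split the arrays gave p = 0.4 for PHOL, DPE1 and DPE2 and p = 0.3 for PHOH, where the design allows no p under 0.1. The intervals above leave room for a 2.79-fold higher PHOL level in high-amylose seed and for a DPE1 level at 0.188 of the waxy level. A group difference within those bounds is thus not excluded by these arrays. The intervals do not give the smallest difference that would be detected. Of all tested loci, 4.90% had a difference as low as that of DPE1 or lower, 9.05% as low as that of DPE2 and 9.34% as low as that of PHOH. PHOL lay on the other side, with 83.5% of loci at or below it.

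The 4 genes did not share a single array profile. On high-amylose replicate 2 all of them were low together, with deviations from each gene's mean over the 5 arrays of -0.57 for PHOL, -0.47 for PHOH, -0.62 for DPE1 and -0.51 for DPE2. On high-amylose replicate 3 they parted, with PHOL at 0.39, and with PHOH at -0.81, DPE1 at -1.45 and DPE2 at -1.02. On high-amylose replicate 1 all were above their means, by 0.46 to 0.92. As a measure of likeness, the root-mean-square difference between centred profiles over the 5 arrays was 0.21 between PHOH and DPE2, the cytosolic pair, and 0.29 between DPE1 and DPE2. It was 0.48 between PHOH and DPE1. PHOL lay farther from the others, at 0.71 from PHOH, 0.76 from DPE2 and 0.98 from DPE1, its plastidial partner. How many of all loci lay as near to each gene was not counted. PHOH is read here by its probe for transcript 2, and its 2 probes themselves differed by up to 0.31 once centred.

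Within-array ratios put that contrast on a scale on which a constant factor per array cancels, whereas effects that depend on the signal of a probe do not. These ratios were chosen after the values had been seen, and each is centred on its mean over the 5 arrays, so that only changes between arrays are read. The log2 ratio of PHOL to DPE1 was -0.26, 0.06 and 1.83 on high-amylose replicates 1, 2 and 3, against -0.996 and -0.64 on the waxy arrays. Every high-amylose array was thus above both waxy arrays, with high-amylose replicate 3 far above the rest. The group means differed by 1.36, or 2.57-fold (exact permutation test, two-sided, p = 0.2, adjusted p = 0.6 over the 6 pairs of genes).

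The ratio of PHOL to DPE2 was -0.03, -0.06 and 1.41 on the high-amylose arrays, against -0.59 and -0.72 on the waxy arrays. Its group means differed by 1.097, or 2.14-fold (exact permutation p = 0.3, adjusted p = 0.6). The ratio of PHOL to PHOH was 0.20, -0.10 and 1.19 on the high-amylose arrays, against -0.35 and -0.94 on the waxy arrays, a difference of 1.08, or 2.11-fold (exact permutation p = 0.2, adjusted p = 0.6). With the PHOH probe for transcript 1 the difference was 0.98, again with no overlap.

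In all 3 ratios that hold PHOL, then, the high-amylose arrays lay above the waxy arrays without overlap. None could pass the exact test, since this design allows no p under 0.1. These 3 ratios share the PHOL values and are not independent. As background, the ratio of PHOL to any other tested locus was higher on every high-amylose array at 14.6% of 28962 loci. Because the groups do not overlap, leaving out arrays cannot turn the sign of these differences, so only their size is read. With 1 array left out the differences were 0.71 to 1.76 for DPE1, 0.61 to 1.35 for DPE2 and 0.70 to 1.38 for PHOH. The lowest value came without high-amylose replicate 3 in each case. With both high-amylose replicates 2 and 3 left out the differences were 0.55, 0.62 and 0.85. Under normexp background correction the differences were 0.93 for DPE1, 0.52 for DPE2 and 0.80 for PHOH, and the groups overlapped for PHOL to DPE2 and PHOL to PHOH, and not for PHOL to DPE1. Of the 3 ratios without PHOL, all overlapped, with differences of 0.28 for PHOH to DPE1, 0.02 for PHOH to DPE2 and -0.26 for DPE1 to DPE2 (exact permutation p = 0.6, 0.8 and 0.4).

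**Figure D2:**
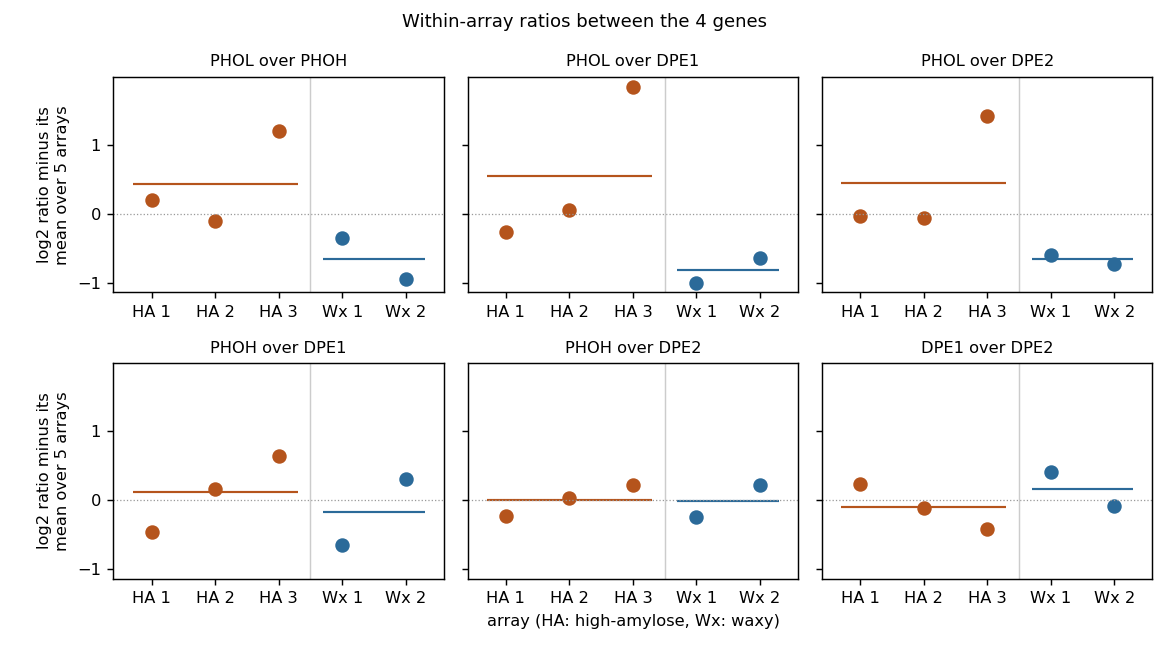
Log2 ratio of 2 genes within each array, minus the mean of that ratio over the 5 arrays (vertical axis), for the 3 high-amylose arrays (HA, orange) and the 2 waxy arrays (Wx, blue), with group means as lines. In the upper row, PHOL over each other gene is higher on all 3 high-amylose arrays than on both waxy arrays, and in the lower row the groups overlap.

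The low DPE1, DPE2 and PHOH values thus belong to high-amylose replicates 2 and 3, the dimmer arrays with the higher green-layer marker sums, and the part of brightness, scan date or tissue make-up in them was not tested. With these 2 arrays left out, or given a term of their own, high-amylose replicate 1 alone stood against the waxy arrays. The differences were then 0.90 for PHOL, 0.05 for PHOH, 0.35 for DPE1 and 0.27 for DPE2, so the 3 negative differences turned. With 1 high-amylose array left for the contrast, its own spread cannot be estimated, and that none passed says little. With scan date as a random block, the differences were 0.43 for PHOL, -0.64 for PHOH, -0.89 for DPE1 and -0.64 for DPE2 (limma adjusted p = 1.00 for each).

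With PHOH read by its probe for transcript 2, the highest and the lowest array of each gene were the same in the 4 scalings compared. The deposited values followed quantile scaling closely, so these are not 4 separate checks. Under the 75th percentile, quantile scaling, normexp background correction and the authors' deposited log2 values, high-amylose replicate 1 was the highest array for PHOL, DPE1 and DPE2 and waxy replicate 2 the highest for PHOH. The lowest array was high-amylose replicate 2 for PHOL and high-amylose replicate 3 for the other 3 genes under each of them. The DPE1 range within high-amylose seed was 2.44 under quantile scaling, 2.34 in the deposited log2 values and 1.81 under normexp. For DPE2 normexp gave 0.93 against 1.72 with the 75th percentile, and the offset of 50 that it adds exceeds the DPE2 intensity of 31.6 on high-amylose replicate 3.

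**Figure D3:**
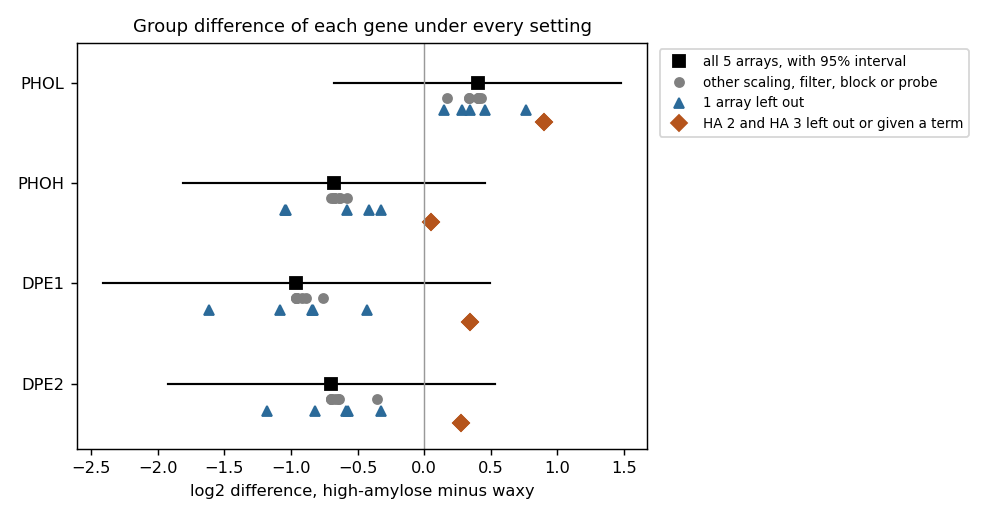
Fitted log2 difference, high-amylose minus waxy, of each gene (horizontal axis), with its 95% interval over all 5 arrays (black) and its value under each alternative. PHOH, DPE1 and DPE2 lie below 0 except where high-amylose replicates 2 and 3 were left out or given a term, which puts them at 0.05, 0.35 and 0.27.

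The other genes of the pathway were read in 3 lists, each beside a median difference of 0.03 over all tested loci. Plastidial starch synthesis, which builds the glucans that PHOL and DPE1 act on, had 13 of 14 loci tested, since the debranching enzyme PUL had no probe among those used here. None of the 13 passed (limma with Benjamini-Hochberg), none had an unadjusted p under 0.05, and 3 differences were positive and 10 negative, with a median of -0.34. That median was -0.73 to -0.12 with 1 array left out, and 0.41 with high-amylose replicates 2 and 3 left out or given a term. GBSSI was at 2.29 (SE 1.04), the branching enzyme BEIIa at -0.88 (SE 0.48), and AGPS2, a small subunit of the ADP-glucose pyrophosphorylase that makes the sugar nucleotide for starch, at -0.72 (SE 0.44). AGPS2 stood at 6.62, 5.84 and 6.001 on the high-amylose arrays, against 6.64 and 7.12 on the waxy arrays. It was the 1 member of 13 that was lower on every high-amylose array, which 5.03% of all tested loci were. Each of the other lists, described below, also held 1 such member, pGlcT of 10 tested loci and UGP2 of 7. GBSSI was at 4.55 without waxy replicate 1 and at 0.04 without waxy replicate 2, each against a single waxy array.

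Glucan and maltose breakdown, the pathway in which DPE2 takes up the exported maltose and PHOH acts on the heteroglycan in Arabidopsis, had 10 of 13 loci tested. None passed or had an unadjusted p under 0.05, with 4 positive and 6 negative differences and a median of -0.05, which was -0.48 without waxy replicate 1 and 0.14 without waxy replicate 2. The glucan-water dikinase GWD1, which phosphorylates starch, was at -0.61 (SE 0.53), the plastidial glucose transporter pGlcT at -0.58 (SE 0.51), and the phosphoglucan-water dikinase PWD at -0.50 (SE 0.61). The maltose exporter MEX1, the step just before DPE2, was not well above background on enough arrays to be tested. PWD shared the order of DPE1 and DPE2 among the high-amylose arrays, at 1.75, 0.55 and -0.40 on high-amylose replicates 1, 2 and 3, against 0.97 and 1.29 on the waxy arrays. This order was not particular to PWD. In this list pGlcT (0.84, 0.80 and -0.49) and the beta-amylase family loci LOC_Os10g32810 and LOC_Os03g04770 had it too, as did PHOH and members of the other lists. Its share over all tested loci was not counted. GWD1 did not have this order, at -1.47, -1.37 and 0.03 on the high-amylose arrays, against -0.33 and -0.32 on the waxy arrays.

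Enzymes and carriers of hexose phosphates, some of which supply or use glucose 1-phosphate, had all 7 loci tested. None passed or had an unadjusted p under 0.05. Their median difference was -0.67, with 3 positive and 4 negative. That median was -0.0413 under normexp, -0.33 over loci well above background on all 5 arrays, -1.07 to -0.32 with 1 array left out, and 0.20 with high-amylose replicates 2 and 3 left out or given a term. The hexokinase HXK5 was at -0.80 (SE 0.60), and the UDP-glucose pyrophosphorylases UGP1 and UGP2, which turn glucose 1-phosphate into UDP-glucose, were at -0.77 (SE 0.57) and -0.73 (SE 0.50). HXK5 was well above background on only 3 arrays, and its sign turned under normexp. Relative to the mean of each locus over the 5 arrays, the median of this list stood at 0.67, -0.37 and -0.93 in the 3 high-amylose accessions and at 0.18 and 0.41 in the 2 waxy ones. The median of plastidial starch synthesis stood at 0.51, -0.61 and -0.42 in the high-amylose accessions and at 0.13 and 0.34 in the waxy ones. The median of glucan and maltose breakdown stood at 0.23, 0.08 and -0.34 in the high-amylose accessions and at -0.13 and 0.35 in the waxy ones. The medians of hexose phosphates and of starch synthesis were thus high on high-amylose replicate 1 and low on replicates 2 and 3, as were PHOH, DPE1 and DPE2, while PHOL on high-amylose replicate 3 and the breakdown list on high-amylose replicate 2 were above their means.

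**Figure D4:**
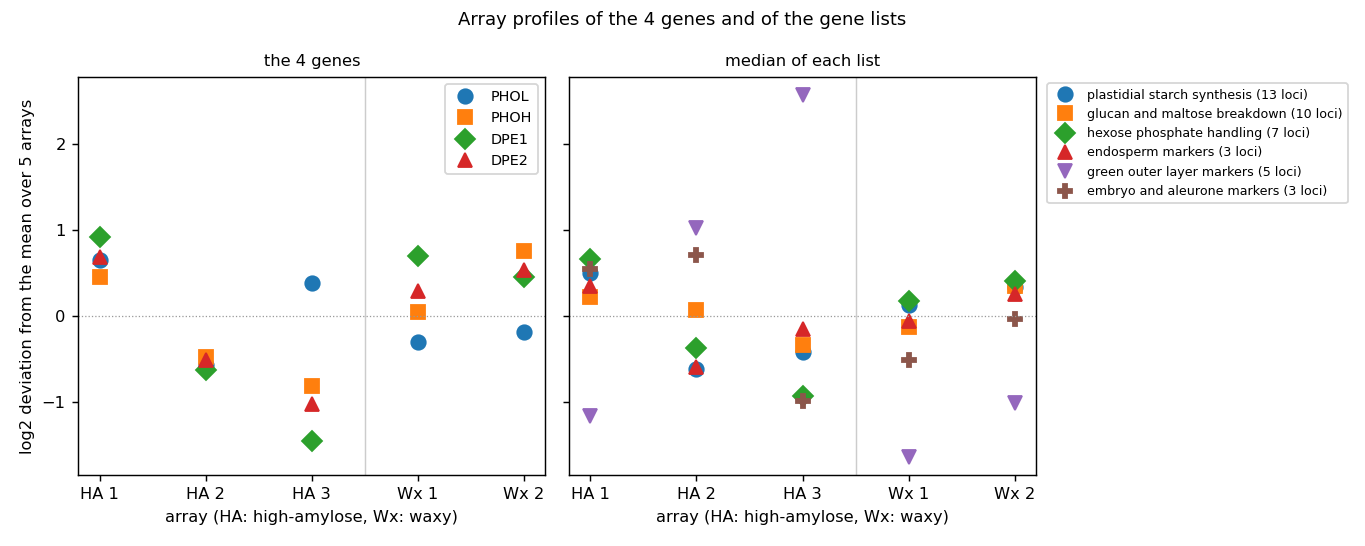
Log2 deviation from the mean over the 5 arrays (vertical axis) for each of the 4 genes (left) and for the median member of each gene list (right), by array (HA: high-amylose, Wx: waxy). On HA 3 DPE1, DPE2 and PHOH lie between -1.45 and -0.81 with PHOL at 0.39, and the green outer layer markers are at 2.57.

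Loci with the most similar profiles were sought among 22564 other loci that were well above background on all 5 arrays. For PHOH the nearest were LOC_Os01g43520 and LOC_Os03g11480, with root-mean-square differences of 0.03 and 0.04 between centred profiles over 5 arrays, against a median of 0.73 over those loci. For DPE2 they were LOC_Os07g42640 and LOC_Os05g39530 (0.07 for both, median 0.82), and for DPE1 they were LOC_Os01g51390 and LOC_Os08g45010 (0.08 for both, median 1.05). For PHOL the nearest were LOC_Os02g48590 and LOC_Os02g09120, both at 0.11 (median 0.61). The files do not pair these loci with gene names, and none of the 4 genes was among the nearest loci of another.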

How the data were processed

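Each array's scanner output was deposited by the authors as intensity per spot, made with Agilent Feature Extraction 11.5.1.1 (protocol GE1_1105_Oct12) and already background-subtracted within the array, per the file headers. The grid belongs to the IRGSP5 build, and chromosomes were read from the locus names. The authors also deposited log2 values, used as an alternative; the submitters' processing notes name limma with no version. Differences between its columns followed quantile-scaled log2 intensities over 10 array pairs (r 0.9997 to 0.9998, slopes 0.989 to 0.992), which settles scale and direction. The baseline subtracted per probe stays unknown, and the medians of its columns were -0.0173, 0.0392 and 0.0273 in high-amylose replicates 1 to 3 and -0.0228 and 0.00403 in the waxy ones.

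Control spots among the deposited features were left out, leaving 61657 spots, none saturated. Repeat spots of 1 probe were averaged, leaving out outliers, log2 intensity was set against each array's 75th percentile, and a probe was tested if well above background on at least 2 arrays. A locus took its probe with the highest mean. The comparison used limma 3.58.1 under R 4.3.3 (lmFit, then eBayes; all 5 arrays; no covariate; two-sided), adjusted over 28963 loci by Benjamini-Hochberg with a threshold of 0.05, after a check on simulated data. The number of arrays limits precision, with a median SE of 0.46. Tables and plots were made with Python 3.11.15, pandas 2.3.3 and matplotlib 3.10.9, and files were read in R with data.table (version 1.17.8) and jsonlite 2.0.0. Normexp used median spot signals, because mean signals were not among the columns. The 4 genes, the lists, the likeness rule (the 2 nearest loci per gene) and the naming rule (up to 3 loci of smallest p per list) were chosen with earlier results of these data known. Replicate numbers follow deposit order. Probe and protein sequences were not used here.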

Additional observations from a re-analysis of the deposited data

How the results depend on the processing

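PHOL kept a positive difference under all 14 alternatives (0.15 to 0.90), and DPE1, DPE2 and PHOH kept negative ones except where high-amylose replicates 2 and 3 were given a scan-date term or left out (0.35, 0.27 and 0.0498 under both). These alternatives are not 14 separate checks. PHOL, DPE1 and DPE2 have 1 probe each, so the filter settings and the fit of every probe apart could not move their differences. The scan-date term and the loss of those arrays gave the same estimate, and the deposited values followed quantile scaling closely. None of the 4 passed under any alternative. Leaving out 1 array gave 0.15 to 0.76 for PHOL, -1.04 to -0.33 for PHOH, -1.61 to -0.43 for DPE1 and -1.18 to -0.32 for DPE2. Without high-amylose replicate 1, 3 of the 4 had an unadjusted p under 0.05, as did 3719 of 28963 loci. The cause of these changes was not tested beyond the loss of the arrays named.

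The count of called loci was 8 (3 higher, 5 lower). It was 3 with quantile-scaled arrays and 3 with the deposited values (0 higher in either), 1 under normexp, 21 where all 5 arrays had to be well above background, and 0 with the scan-date term and 0 without high-amylose replicates 2 and 3, where limma gave 1165 and 1666 loci an unadjusted p under 0.05. Leaving out 1 array gave 3 to 175. With no filter on dim probes the median of all loci was 0.21 against 0.03.

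With the scan-date term or without those 2 arrays, list medians were 0.41 for starch synthesis, 0.20 for hexose phosphates and 0.34 for endosperm markers, against -0.34, -0.67 and -0.18 over all arrays. The breakdown median ranged from -0.48 to 0.14 with 1 array left out. Signs also turned for HXK5 (0.23 under normexp, 0.36 with the scan-date term or without those 2 arrays), and for UGP1 (0.20) and PWD (0.62) under the last 2 of these settings, and PWD ranged from -1.06 to 0.0203 with 1 array left out, the highest without high-amylose replicate 3. The ratio of PHOH to DPE2, 0.02 over all arrays, was -0.0260 with quantile scaling, -0.0281 with the deposited values, -0.28 under normexp, -0.22 without high-amylose replicates 2 and 3, and -0.21 to 0.25 with 1 array left out. The ratio of PHOH to DPE1 was -0.30 and that of DPE1 to DPE2 was 0.0705 without those 2 arrays. Leaving out 1 array gave -0.20 to 0.76 for PHOH to DPE1. The ratio alternatives were chosen after seeing the data. No paired analysis was possible because the replicate numbers come from deposit order and pair no accessions.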
